A study of Mus musculus with 4 samples.

Results

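The noncoding small nucleolar RNA (snoRNA) host genes were followed in mouse embryonic stem cells depleted of Npac. The set comprised Snhg1, Snhg3, Snhg4, Snhg5, Snhg6, Snhg7, Snhg8, Snhg11, Snhg12 and Gas5. Members were all probe sets whose single gene symbol in the array annotation was 1 of these names, which gave 20 probe sets for 10 genes, of 45037 probe sets and 18193 singly named genes on the array. Another 2 probe sets that carry a member's symbol together with a snoRNA symbol were left out by this rule. The family was taken up with results of the same comparison known, so its differences are given as a description and the calls on its members are counted without being read as evidence.

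The study used the mouse embryonic stem cell line E14 in 2 groups of 2 arrays each. Cells of the Npac RNAi group were transfected with a short hairpin RNA against Npac, and those of the control RNAi group with a control that is not described further in the sources used here; the deposited treatment text names only the Npac hairpin, and the groups rest on the sample titles. Both groups were grown with 15% serum and LIF, a cytokine that keeps these cells undifferentiated, put under puromycin 24 hours after transfection and harvested after 3 days of selection. The labels do not say how many hairpins were used or whether the arrays of a group came from separate cultures. The spread between the 2 arrays of a group may therefore be technical. Errors given below combine this spread with a prior variance that limma, the method used for testing, estimates over all probe sets. Npac is the older name of Glyr1, which encodes a nucleosome-binding protein of transcribed chromatin.

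Host genes of this class are transcribed by RNA polymerase II, and snoRNAs are cut out of their introns after splicing. The snoRNAs then join protein complexes (snoRNPs) that guide methylation and pseudouridylation of ribosomal RNA or take part in its cleavage. The spliced exons code for no conserved protein, and in many hosts they are removed by nonsense-mediated decay, a translation-dependent RNA degradation pathway. Many hosts also start at a 5' terminal oligopyrimidine (TOP) tract, a run of C and T shared with ribosomal protein genes that ties translation to growth signals. The member probe sets are read here as signals of the host transcript. Which exons or introns they cover was not examined, and levels of the snoRNAs themselves are not read from them.

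In the RefSeq annotation of GRCm38.p6, used here for names and neighbourhood, each member is a long noncoding RNA gene that contains snoRNA genes. Gas5 and Snhg1 contain 8 each, among them Snord47 in Gas5 and Snord22, the U22 snoRNA, in Snhg1. Snhg12 contains 4, which are Snora16a, Snora44, Snora61 and Snord99. Snhg3 contains the 2 genes Snora73a and Snora73b, the U17 snoRNAs that act in processing of the small ribosomal subunit RNA. Snhg7 contains Snora17 and Snora43, and Snhg5 and Snhg11 hold 2 snoRNA genes each that have no Snora or Snord symbol in this annotation. Snhg4, Snhg6 and Snhg8 contain 1 each, namely Snora74a, Snord87 and Snora24.

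The start regions of the members are shown because they share features that the choice of members did not use. RefSeq promoter sequences of GRCm38.p6 were found for 8 of the 10 genes, Snhg4 and Snhg6 having no entry in the table used. Each sequence below runs 5' to 3' on the transcribed strand from 50 bases before the annotated start to 30 bases after it, and Gas5 has 2 annotated starts. Capitals mark the letters TATA and any run of at least 5 C or T that touches the 10 bases on either side of the start.
Gas5 downstream start (chr1:161035116-161035195, plus strand): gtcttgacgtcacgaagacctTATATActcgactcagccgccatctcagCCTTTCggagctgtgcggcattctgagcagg
Snhg1 (chr19:8723437-8723516, plus strand): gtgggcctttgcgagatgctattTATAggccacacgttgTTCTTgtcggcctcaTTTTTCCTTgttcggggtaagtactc
Snhg3 (chr4:132353657-132353736, minus strand): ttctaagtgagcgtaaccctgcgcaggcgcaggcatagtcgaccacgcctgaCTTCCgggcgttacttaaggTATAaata
Snhg5 (chr9:88522868-88522947, minus strand): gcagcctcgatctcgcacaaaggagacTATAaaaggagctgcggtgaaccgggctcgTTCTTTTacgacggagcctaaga
Snhg7 (chr2:26640215-26640294, minus strand): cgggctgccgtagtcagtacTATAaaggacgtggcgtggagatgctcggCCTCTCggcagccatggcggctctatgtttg
Snhg8 (chr3:123508307-123508386, minus strand): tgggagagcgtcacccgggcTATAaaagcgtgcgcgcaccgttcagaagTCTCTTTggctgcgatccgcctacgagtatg
Snhg12 (chr4:132308628-132308707, plus strand): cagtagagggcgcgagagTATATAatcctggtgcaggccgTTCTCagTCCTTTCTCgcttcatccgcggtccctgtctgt
Gas5 upstream start (chr1:161034551-161034630, plus strand): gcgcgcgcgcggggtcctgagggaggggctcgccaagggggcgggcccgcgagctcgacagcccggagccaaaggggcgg
Snhg11 (chr2:158375663-158375742, plus strand): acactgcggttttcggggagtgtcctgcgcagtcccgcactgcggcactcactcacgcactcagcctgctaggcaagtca
Both features were searched after the sequences had been seen. The letters TATA, which read the same on both strands, were looked for from 50 bases before to 50 bases after the start. They were found at 7 of the 9 starts, and in 6 of these they began 23 to 32 bases before the annotated start, where a TATA box usually lies. In Snhg3 they began 23 bases after the annotated start. TATA lay in this window at 13.7% of all 32851 starts. It lay there at 16.3% of 92 starts of protein-coding genes whose symbol is Rpl, Rps or Rplp followed by a digit. This name rule was meant for ribosomal protein genes but also admits kinase genes whose symbols begin with Rps. The pyrimidine run, read on the transcribed strand only, was present at the same 7 starts, with a longest run of 5 bases in Snhg3 and of 9 bases in Snhg1 and Snhg12. It was present at 44.9% of all starts and at 64.1% of the starts taken by the name rule. Both features together were present at 6.15% of all starts and 13% of the starts taken by the name rule. The upstream start of Gas5 and the start of Snhg11 had neither. A match is a description of these letters and does not show a binding site or an initiation site.

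Values are RMA signals on a log2 scale, and all differences are Npac RNAi minus control RNAi with the standard error (SE) from the limma fit over all probe sets. The depletion was read on Glyr1, which read 10.23 and 10.20 in Npac RNAi and 11.30 and 11.32 in control RNAi (-1.09, SE 0.0554, limma adjusted p = 0.00171). Array medians lay between 6.41 and 6.44, and arrays correlated at 0.998 within each group and at 0.987 to 0.989 between groups (Pearson's r across probe sets, which are not independent replicates). Actin probes read 0.68 and 0.69 higher at the 3' than at the 5' end in Npac RNAi and 0.64 and 0.68 higher in control RNAi, and for Gapdh this excess was 0.016 and 0.056 in Npac RNAi and -0.069 and -0.027 in control RNAi. The 24 probe sets for bacterial spike-in transcripts averaged 9.15 and 9.24 in Npac RNAi and 8.70 and 8.61 in control RNAi, a mean difference of 0.54 with all 24 higher. Their part in the results was not tested, but scaling on them lowers every difference by this amount. In bulk RNA, fewer cells that express a gene and less RNA of it per cell cannot be told apart.

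Host transcripts were lower in Npac-depleted cells for most members. Both Npac RNAi arrays lay below both control RNAi arrays in 18 of the 20 member probe sets, a pattern found in 41.1% of all probe sets, and above them in 1 of the 20, against 28% of all probe sets. The limma test called 13 of the 20 lower and 0 higher at an adjusted p under 0.05, against 14% of all probe sets called lower, 14.2% called higher and 28.2% called in either direction. At an unadjusted p under 0.05 the counts were 15 lower and 1 higher, against 24.7% and 19.2% of all probe sets. The median difference was -0.44 over the member probe sets and -0.064 over all 45037, and 10 of the 20 were lower by at least 0.5, as were 3.41% of all probe sets. With each gene represented by its brightest probe set, 8 of the 10 genes were called lower, against 14.6% of the 18193 genes, and the exceptions were Snhg1 and Snhg11. With the mean of the probe sets of a gene, Snhg1 was called lower as well, which made 9 of the 10. All 8 were called lower by at least 0.5, as were 3.35% of all genes. Because the family was chosen on this comparison, nothing is inferred from these shares. With 1 array left out, which leaves 1 residual degree of freedom in place of 2, fewer member probe sets were called lower in every fit. Fewer of all probe sets were called lower in these fits too, so the loss was not particular to the members. Snhg3, Snhg4 and Snhg6 were called in each of these fits. Scaling on the spike-ins called all 20 lower, but it also called 38240 probe sets lower and 1506 higher, against 6327 lower and 6378 higher as deposited.

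**Figure D1:**
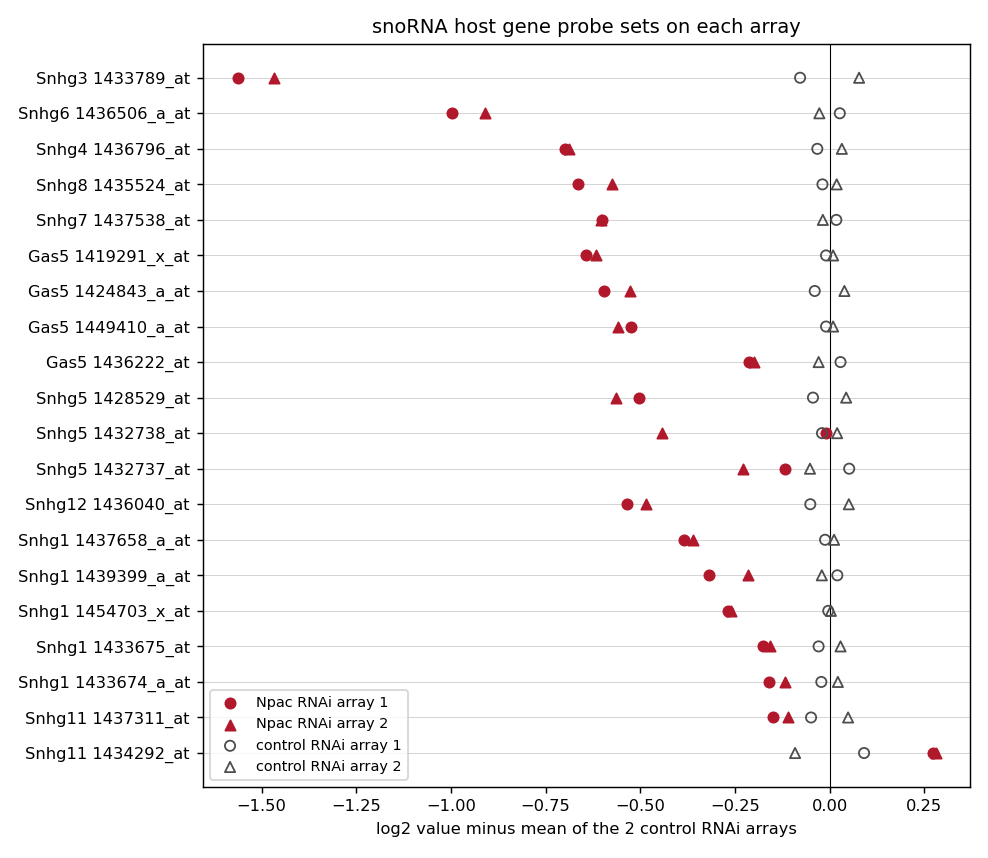
Each row is 1 member probe set, and the horizontal axis gives the log2 value on each array minus the mean of the 2 control RNAi arrays (filled symbols Npac RNAi, open symbols control RNAi, circles array 1, triangles array 2). The Npac RNAi arrays lie left of the control arrays in 18 of 20 rows, overlap with them for Snhg5 probe set 1432738_at and lie to the right for Snhg11 probe set 1434292_at.

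Among the genes read by 1 probe set, Snhg3, the U17 host, differed most. It stood at 9.16 and 9.26 in Npac RNAi and at 10.65 and 10.80 in control RNAi, so 35.0% of the control signal was left (-1.52, SE 0.0817). The groups were far apart, and Snhg3 is the row that reaches farthest to the left in the plot by array. Genes with the most similar profile were sought among the 18193 genes as those at the smallest Euclidean distance over the 4 arrays after centring each gene on its mean. They were Sfrp1, a secreted Wnt antagonist (distance 0.136, difference -1.38), the nuclear receptor gene Nr0b1 (0.152, -1.43) and Eras, a Ras family gene of embryonic stem cells (0.153, -1.40). Their lower values on both Npac RNAi arrays follow from this choice by distance and are no separate result. With the mean of its probe sets Sfrp1 was at -0.94.

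Snhg6, the host of Snord87, stood at 11.11 and 11.19 in Npac RNAi and at 12.13 and 12.08 in control RNAi, leaving 51.6% of the control signal (-0.95, SE 0.0644). Snhg4, the host of Snora74a, read 10.40 and 10.41 in Npac RNAi and 11.07 and 11.13 in control RNAi, or 61.8% (-0.69, SE 0.0589). In both genes the arrays of a group lay close together. Both Npac RNAi arrays lay below both control arrays, as in 41.1% of all probe sets.

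Snhg8, Snhg7 and Snhg12 lay closer together. Snhg8, the Snora24 host, had 11.58 and 11.67 in Npac RNAi and 12.22 and 12.26 in control RNAi (-0.62, SE 0.0632, 65.1% of control). Snhg7 had 9.58 and 9.58 in Npac RNAi and 10.20 and 10.16 in control RNAi (-0.60, SE 0.0559, 65.9% of control). Snhg12 had 10.37 and 10.42 in Npac RNAi and 10.86 and 10.96 in control RNAi (-0.51, SE 0.0665, 70.2% of control). In each of these genes both Npac RNAi arrays lay below both control arrays, as in 41.1% of all probe sets. Snhg7 and Snhg8 lost their call only without control array 2 among the fits that leave out 1 array, whereas Snhg12 lost it with each array left out in turn.

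Gas5, first described as a transcript that accumulates in growth-arrested cells, was read by 4 probe sets. The brightest, 1449410_a_at, stood at 12.06 and 12.03 in Npac RNAi and at 12.58 and 12.60 in control RNAi (-0.54, SE 0.0562, 68.7% of control). Probe set 1419291_x_at had 11.97 and 11.99 in Npac RNAi and 12.60 and 12.62 in control RNAi (-0.63, SE 0.0558), and 1424843_a_at had 8.92 and 8.99 in Npac RNAi and 9.48 and 9.56 in control RNAi (-0.56, SE 0.0648). These 3 probe sets thus gave differences of similar size. The fourth, 1436222_at, had 9.16 and 9.17 in Npac RNAi and 9.40 and 9.34 in control RNAi, a smaller difference that limma did not call (-0.21, SE 0.0581). To compare probe sets of a gene, the per-array difference between the brighter and the dimmer was tested over all 30372 such pairs of the array, of which 16.7% were called; these tests use the same arrays that led to the choice of the family. Of the 6 Gas5 pairs 1 was called, that of 1419291_x_at with 1436222_at (-0.42, SE 0.0865, limma adjusted p = 0.0326), and 3 passed an unadjusted p under 0.05, as did 34.1% of all pairs. That call was lost whichever array was left out. Among the calls on single probe sets, that on 1419291_x_at was lost without control array 2, that on 1449410_a_at without Npac array 2 or either control array, and that on 1424843_a_at whichever array was left out. Suffix x_at marks probe sets in which some probes may bind other transcripts, and the deposited table does not say which exons each probe set covers.

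Snhg1, the host of Snord22 and other box C/D snoRNAs, was read by 5 probe sets, and its differences were small. The brightest, 1433674_a_at, had 12.53 and 12.57 in Npac RNAi and 12.67 and 12.71 in control RNAi (-0.14, SE 0.0582), and was not called. Probe set 1437658_a_at differed most, with 9.70 and 9.72 in Npac RNAi and 10.07 and 10.09 in control RNAi (-0.37, SE 0.0558, 77.2% of control). The remaining probe sets lay between these at -0.27 for 1439399_a_at (SE 0.0662), -0.26 for 1454703_x_at (SE 0.0548) and -0.17 for 1433675_at (SE 0.0582), the last not called. All 5 had both Npac RNAi arrays below both control arrays, as did 41.1% of all probe sets. Each of the 3 calls was lost whichever array was left out. The mean of the 5 probe sets was -0.24 and was called lower, so whether Snhg1 counts as called depends on how its probe sets are combined. Of the 10 Snhg1 pairs limma called 0, and 1 passed an unadjusted p under 0.05, so a difference between the probe sets was not resolved.

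Snhg5, the mouse counterpart of the human U50 host gene, had 1 bright and 2 dim probe sets. The bright one, 1428529_at, had 11.17 and 11.11 in Npac RNAi and 11.63 and 11.72 in control RNAi (-0.53, SE 0.0651, 69.1% of control). Of the dim ones, 1432737_at had 6.09 and 5.98 in Npac RNAi and 6.26 and 6.16 in control RNAi (-0.17, SE 0.0741). Probe set 1432738_at had 5.75 and 5.32 in Npac RNAi and 5.74 and 5.78 in control RNAi (-0.23, SE 0.154), so its groups overlapped. The value of the last rested on Npac array 2, without which it was -0.0092, and neither dim probe set was called. Both share 1 source sequence in the annotation and lie below the median signal of all probe sets, so a smaller difference there cannot be told apart from low signal. None of the 3 Snhg5 pairs was called by limma, and 1 passed an unadjusted p under 0.05. The mean of the 3 probe sets was -0.31. The call on 1428529_at was lost without Npac array 2 or either control array.

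Snhg11 was the member with a higher probe set. Probe set 1434292_at had 9.25 and 9.26 in Npac RNAi and 9.07 and 8.89 in control RNAi (0.28, SE 0.0815, 121% of control), and the second, 1437311_at, had 8.53 and 8.57 in Npac RNAi and 8.63 and 8.73 in control RNAi (-0.13, SE 0.0649). Neither was called, their directions were opposite, and their mean was 0.074. The pair was not called by limma either (0.41, SE 0.119, adjusted p = 0.0749). For 1434292_at the call depended on the processing, since it was called higher with the trend option, among probe sets at or above the median signal and when 1 probe set per gene was tested, and called lower with spike-in scaling (-0.26).

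**Figure D2:**
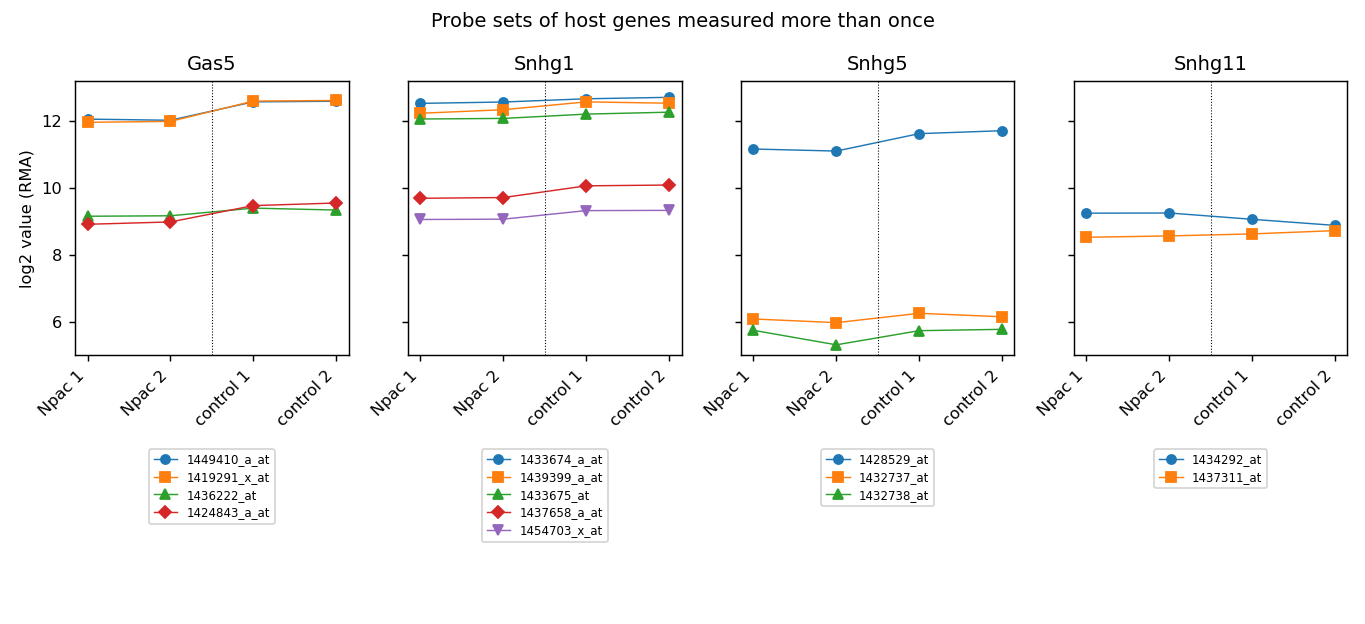
The panels show the 4 host genes with several probe sets, with the log2 RMA value on the vertical axis and the arrays on the horizontal axis (Npac RNAi left of the dotted line, control RNAi right of it), and each line is 1 probe set. The lines of Gas5 and Snhg1 step up toward the control arrays by 0.14 to 0.63, and those of Snhg11 run in opposite directions.

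**Figure D3:**
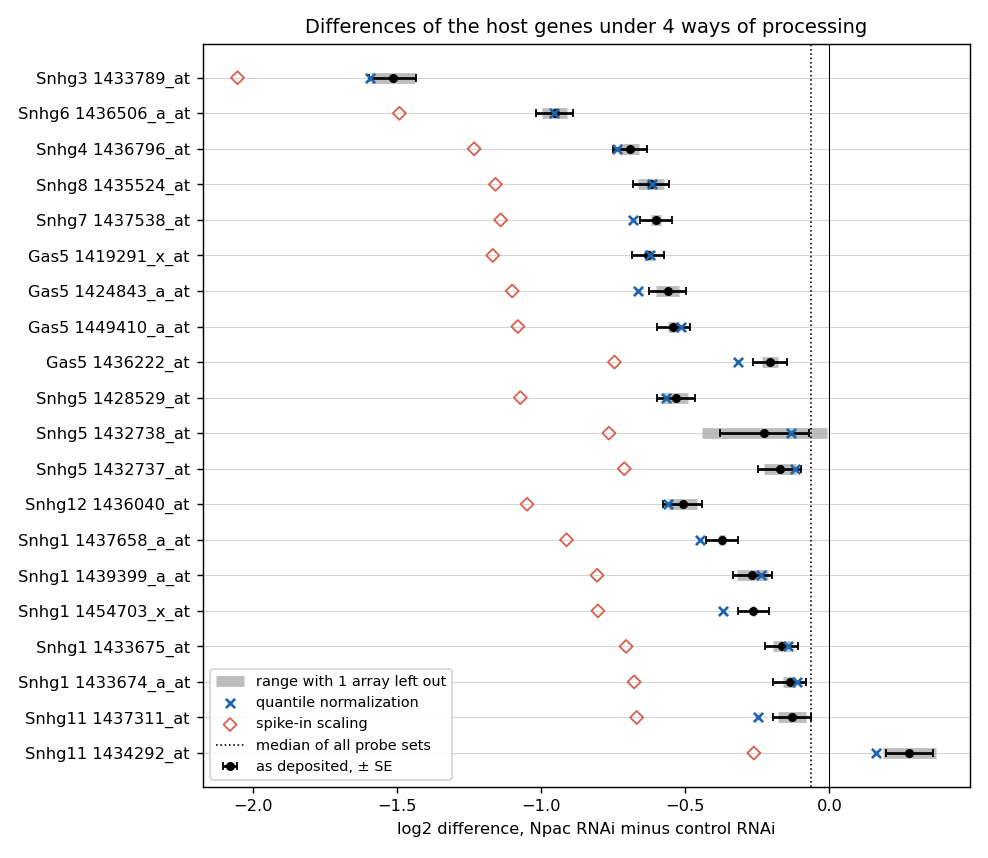
Each row is 1 member probe set and the horizontal axis is the log2 difference, Npac RNAi minus control RNAi, as deposited with its SE (black), after quantile normalization (crosses), after spike-in scaling (diamonds) and as a range with 1 array left out (grey bars). Snhg3 lies between -2.06 and -1.44 throughout, and Snhg11 probe set 1434292_at changes side with spike-in scaling.

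Genes beside a host on the chromosome were examined because a host may share its surroundings with them. For each member the nearest singly named protein-coding gene on either side was taken by its place in the RefSeq annotation, which gave 20 genes chosen by position and not by value. Of these, 4 were called lower and 8 higher, against 14.6% and 19.3% of all genes, and their median difference was 0.14. The host was lower than its neighbour in 18 of 20 cases, the exceptions being both neighbours of Snhg11. Because the hosts were taken up with their lower values known, that choice favours this count, and nothing is inferred from it. Snhg3 lies between Rcc1, a chromatin-bound exchange factor for Ran (9.33 and 9.33 in Npac RNAi and 10.19 and 10.12 in control RNAi; -0.83, SE 0.0589, limma adjusted p = 0.00307), and the actin regulator gene Phactr4 (0.45, SE 0.0558). Rcc1 was the neighbour with the largest lower value and was called in every fit that left out 1 array. Snhg12, on the other side of Rcc1, lies beside Trnau1ap, a gene of selenocysteine incorporation (-0.30, SE 0.0677), and Rab42 (0.90, SE 0.0937). Zbtb37, which overlaps Gas5, was higher (0.52, SE 0.112), and Matr3, the neighbour of Snhg4, was at -0.015 (SE 0.067). The amino acid transporter gene Slc3a2, beside Snhg1, was higher (0.24, SE 0.0572). Leaving out 1 array cost 11 of the 12 calls on neighbours in at least 1 fit, all but that on Rcc1. Those on Slc3a2, Phactr4, Sil1, Zfp949, Lcn4, Ralgapb and Trnau1ap were lost whichever array was left out. Those on Tcf24 and Zbtb37 were lost without either Npac array or control array 2, that on Dipk1b without Npac array 2 or either control array, and that on Rab42 without Npac array 2. With spike-in scaling, 6 of the 8 called higher had negative differences, the exceptions being Tcf24 and Rab42. With the mean of the probe sets of a gene, Phactr4 was at 0.0063, Zfp949 at -0.017 and Ralgapb at -0.039, and none of these was called (limma adjusted p = 0.957, 0.827 and 0.564).

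**Figure D4:**
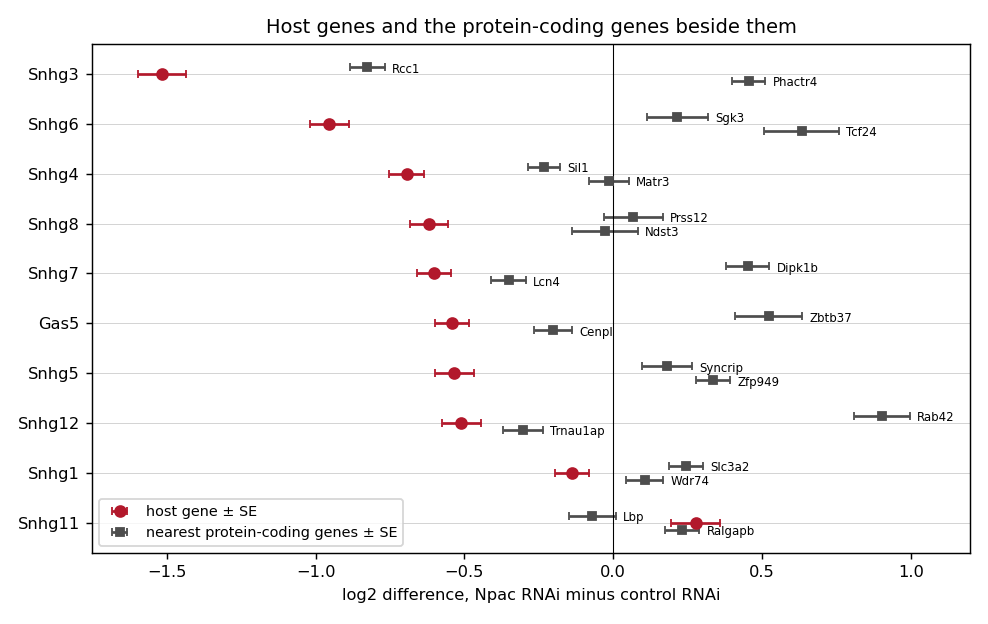
Each row is 1 host gene (red circle, brightest probe set) with the nearest protein-coding gene on either side (grey squares), on an axis of log2 difference, Npac RNAi minus control RNAi, with bars of 1 SE. For 9 of the 10 hosts the circle lies left of both squares, which the choice of hosts with known lower values favours. The neighbours lie between -0.83 for Rcc1 and 0.90 for Rab42.

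Further noncoding snoRNA hosts outside the set were listed too. Of 12 listed 8 were measured, of which limma called 6 lower and 0 higher (7 and 0 at an unadjusted p under 0.05), with a median of -0.38 against -0.040 over all genes; among all genes 14.6% were called lower and 19.3% higher, and 24.7% and 24.9% passed the unadjusted threshold. Dancr, a noncoding RNA known in human cells to hold progenitors undifferentiated, had 9.67 and 9.74 in Npac RNAi and 10.49 and 10.42 in control RNAi (-0.74, SE 0.0635, limma adjusted p = 0.00437). Zfas1 was at -0.45 (SE 0.0547, limma adjusted p = 0.00905), Snhg14 at -0.42 (SE 0.0964), Snhg18 at -0.33 (SE 0.0632) and Snhg16 at -0.30 (SE 0.0642). Rian, an imprinted host of tandem snoRNAs, had the largest difference of the list, with 7.86 and 7.65 in Npac RNAi and 10.33 and 10.27 in control RNAi (-2.55, SE 0.0908, limma adjusted p = 0.0011), and Snhg17 (-0.26, SE 0.0913) and Snhg10 (-0.039, SE 0.0579) were not called. With 1 array left out, 2 of the list were called in each fit, and these were Dancr and Rian. The mean of the probe sets of Snhg14 was -0.15 and was not called (limma adjusted p = 0.0987). That of Rian was -1.73, a smaller difference than by its brightest probe set, and was called lower.

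Of 49 listed snoRNA host genes that code for proteins 33 were measured, and 8 were called lower and 0 higher (13 and 0 at an unadjusted p under 0.05), with a median of -0.13; the shares of all genes were 14.6% lower and 19.3% higher (24.7% and 24.9% unadjusted). Spike-in scaling called all 33 lower, as it did 38240 of all 45037 probe sets. The RNA polymerase I factor gene Taf1d (-0.66, SE 0.0735, limma adjusted p = 0.00752) and Nop56, which encodes a core protein of box C/D snoRNPs (-0.47, SE 0.0619, limma adjusted p = 0.0106), had the smallest adjusted p of the 8, and 25 of the 33 were not called. With 1 array left out, 0 or 1 were called lower, 0 of them without control array 2. That 1 was Taf1d, and Nop56 was called in none of these fits.

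Among proteins that assemble or work with snoRNAs, 23 of 24 listed were measured, with 9 called lower, 1 higher (12 and 3 at an unadjusted p under 0.05) and a median of -0.17, where 14.6% of all genes were called lower and 19.3% higher. Spike-in scaling called 22 lower and 0 higher, where it called 38240 of all 45037 probe sets lower. Besides Nop56, the 9 called lower as deposited included Nolc1, a nucleolar chaperone of snoRNPs (-0.48, SE 0.0571, limma adjusted p = 0.0087). The higher one was Parn, a deadenylase that trims H/ACA snoRNA ends (0.33, SE 0.058, limma adjusted p = 0.02), which was at -0.21 with spike-in scaling. The methyltransferase gene Fbl (-0.17, SE 0.0553) was not called. With any 1 array left out, no call on this list remained. The differences were then -0.51 to -0.44 for Nop56, -0.50 to -0.45 for Nolc1 and 0.31 to 0.36 for Parn.

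TOP genes of translation and nonsense-mediated decay factors, which share a start feature with the hosts or act on their RNA, are read against 14.6% of all genes called lower and 19.3% called higher (24.7% and 24.9% at an unadjusted p under 0.05). Of 22 TOP genes measured (25 listed), 4 were called lower and 0 higher (6 and 0 at an unadjusted p under 0.05), with a median of -0.053. The histone chaperone gene Nap1l1 (-0.35, SE 0.0558, limma adjusted p = 0.0166) and Hnrnpa1, a splicing regulator (-0.34, SE 0.0584, limma adjusted p = 0.02), led, and 0 were called with 1 array left out. The share of TOP genes called lower was close to that of all genes. Several of them lay near the highest values of the arrays, which were 15.01 to 15.05. Eef1a1, for example, averaged 14.96 in Npac RNAi and 14.98 in control RNAi. Whether differences are compressed at such signals was not tested. Of 19 decay factors measured (24 listed), 2 were called higher and 2 lower (5 and 4 at an unadjusted p under 0.05), with a median of -0.0082. Neither direction exceeded the share of all genes among the calls. At the unadjusted threshold the 5 higher of 19 lay slightly above the 24.9% of all genes. Dcp2, the decapping enzyme, had 11.51 and 11.59 in Npac RNAi and 12.42 and 12.40 in control RNAi (-0.86, SE 0.0617, limma adjusted p = 0.00311) and was called in every fit with 1 array left out. The others, called in none of these fits, were the endonuclease gene Smg6 (-0.31, SE 0.0656), the release factor gene Gspt1 (0.23, SE 0.0547) and Casc3 of the exon junction complex (0.23, SE 0.0574), and Upf1, the central helicase of the pathway, was not called (-0.11, SE 0.0853). Gspt1 was at 0.11 with the mean of its probe sets and was not called (limma adjusted p = 0.241). With spike-in scaling all members of both lists were called lower, as were 38240 of all 45037 probe sets.

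**Figure D5:**
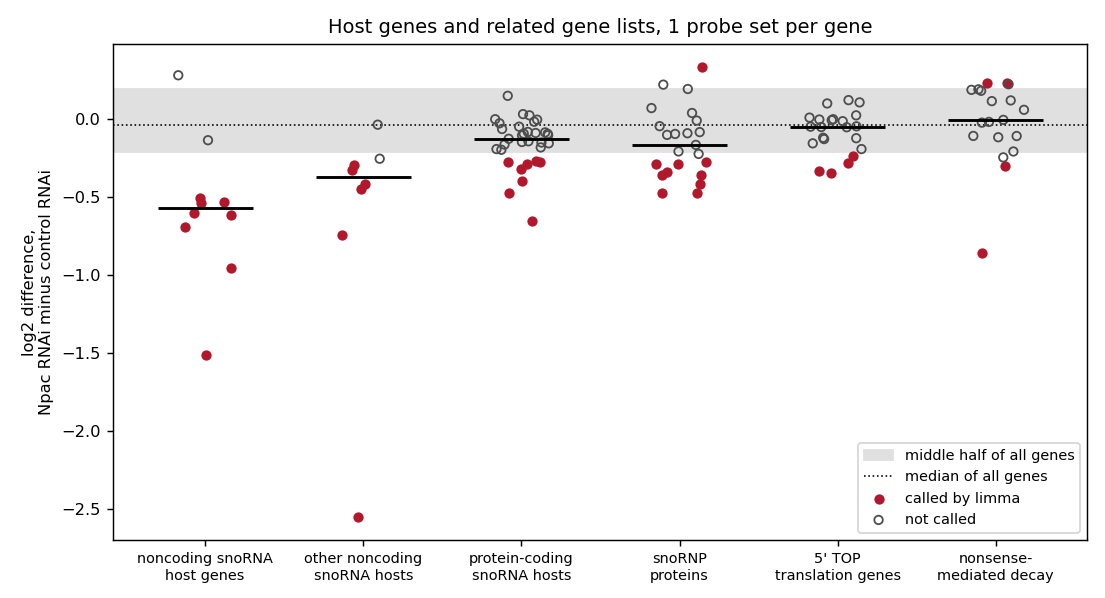
Columns are the 10 noncoding host genes and 5 related lists, each point is 1 gene by its brightest probe set, and the vertical axis is the log2 difference, Npac RNAi minus control RNAi (filled, called by limma; open, not called; bar, median of the list; grey band and dotted line, interquartile range and median of all genes). The medians run from -0.57 for the host genes and -0.38 for further noncoding hosts to -0.0082 for decay factors.

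The labelled cell type was checked on its markers, which moved with the groups; 14.6% of all genes were called lower and 19.3% higher. Embryonic stem cell markers averaged 12.11 and 12.14 in Npac RNAi and 12.65 and 12.64 in control RNAi, with 4 of 5 called lower (1 without control array 2 and 2 without each of the others). Trophoblast markers averaged 10.44 and 10.46 in Npac RNAi and 8.65 and 8.60 in control RNAi, with 7 of 8 called higher (6 or 7 with 1 array left out). Feeder fibroblast markers averaged 5.37 and 5.32 in Npac RNAi and 5.45 and 5.36 in control RNAi. Of these 7 markers limma called 0, and 1 passed an unadjusted p under 0.05, lower. Spike-in scaling called all 7 lower, as it did 38240 of all 45037 probe sets. No array value is a true 0, and RMA gives no detection call. The part of this shift of markers in the lower host transcripts was not tested.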

How the data were processed

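RNA was measured on 4 one-colour Affymetrix arrays, 2 per group, from biotin-labelled RNA made of 5 µg total RNA, per the labels' protocols. The deposited values are log2 signals, 1 per probe set and array, made by the authors with RMA, per the submitters' processing notes, without a version; the log base was inferred from values between 2.78 and 15.05. RMA equalises arrays, so a change shared by most transcripts is removed, and depth has no meaning here: the 2 arrays per group limit the precision.

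Of 45101 probe sets, 64 manufacturer's controls were kept out of tests. Of the rest, 34945 had 1 symbol, 932 several and 9160 none; 34741 symbols were matched through Entrez identifiers to RefSeq of GRCm38.p6. Groups from the sample titles were set against each other by lmFit and eBayes of limma (version 3.58.1, R 4.3.3) over all 45037 probe sets without a filter, with Benjamini-Hochberg adjusted p under 0.05 as a call; the prior added 2.56 degrees of freedom to 2. Pairs of probe sets of a gene were tested likewise. The procedure was tested on simulated data. Named were all members, Glyr1, further noncoding hosts, up to 2 higher and 2 lower called genes of each other list with the smallest adjusted p, and the 3 genes nearest in profile to the member with the largest difference; Fbl, Upf1 and the neighbouring genes were added outside this rule after values were seen, the neighbours by position. Members and lists were chosen with earlier results of these data known. Alternatives were forms of the empirical Bayes step, normalizations, spike-in scaling, a filter on dim probe sets, gene-level values, thresholds, a block for the replicate number, and fits without each array.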

Additional observations from a re-analysis of the deposited data

How the results depend on the processing

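Of the host genes, 19 of the 20 member probe sets were lower in each of the 13 to 16 alternatives run for them, and the exception was Snhg11 probe set 1434292_at (0.28 as deposited, -0.26 with spike-in scaling). Most alternatives could not change this direction. Forms of the empirical Bayes step, the filter and the replicate blocks leave a difference unchanged, and spike-in scaling lowers it. A lower probe set whose groups do not overlap could turn only with another normalization or with gene-level values. The number of member probe sets called lower, 13 as deposited, became 5 with no moderation, 6 at a minimum of 1.5-fold, 20 with spike-in scaling and 3 to 8 with 1 array left out, and 1 was called higher with the trend option and 1 among probe sets at or above the median. Over all probe sets, 6327 lower and 6378 higher became 793 and 1100 with no moderation, 38240 and 1506 with spike-in scaling, 1172 and 2565 at an adjusted p under 0.01, 878 and 2633 at a minimum of 1.5-fold, and 468 to 1347 lower and 1592 to 2890 higher with 1 array left out. The 1 member pair called within a gene became 2 after quantile normalization, 2 after cyclic loess, 5 among probe sets at or above the median, 0 with no moderation and 0 whichever array was left out; the cause was not tested. Fewer tested features and fewer arrays are part of these alternatives by construction. Called lower with the trend option were 25 protein-coding hosts, 14 snoRNP proteins, 11 TOP genes and 4 decay factors, against 8, 9, 4 and 2 as deposited. Called higher with it were 1, 3, 2 and 7 of these lists, against 0, 1, 0 and 2 as deposited. Over all probe sets the trend option called 7721 lower and 8266 higher.

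Spike-in scaling, which takes 0.54 from every difference, also turned Parn (-0.21), Gspt1 (-0.31), Casc3 (-0.31), Slc3a2 (-0.29), Wdr74 (-0.43), Phactr4 (-0.085), Syncrip (-0.36), Zfp949 (-0.20), Sgk3 (-0.32), Dipk1b (-0.087), Prss12 (-0.47), Ralgapb (-0.31) and Zbtb37 (-0.018). The mean of all probe sets of a gene turned Zfp949 (-0.017) and Ralgapb (-0.039), ended the calls on Snhg14 (-0.15), Gspt1 (0.11) and Phactr4 (0.0063), and called Snhg1 lower (-0.24).

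The labels do not say whether samples of the same replicate number share more than that number. Their deviations from the group means correlated at -0.14 across probe sets, which are not independent, so this value cannot settle it. With the replicate block 10 member probe sets were called lower, 0 member pairs, and 1668 lower and 3219 higher over all probe sets. A crossed replicate block, chosen after seeing the data, gave 11 member probe sets lower, and 4327 lower and 5173 higher in all.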
